A study of Mus musculus with 9 samples.

Results

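Messenger RNA of 30 genes of cholesterol and fatty acid synthesis was described in primary pancreatic tumors of KPC mice, in 5 tumors labelled Scrib null and 4 labelled Scrib WT. The 30 genes are the pathway's enzymes and regulators, named as a list from the pathway, with earlier results of these data known; the rule itself uses no measured value. All 30 were among the 54453 rows of the deposited count table, and all 30 were among the 16169 genes abundant enough to test. They comprise 7 enzymes of the mevalonate arm, 11 enzymes of the squalene-to-cholesterol arm, 6 regulators and 6 enzymes of fatty acid synthesis.

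Sterol regulatory element-binding proteins (SREBPs) are transcription factors made as membrane proteins of the endoplasmic reticulum. When membrane cholesterol is low, the escort protein Scap carries them to the Golgi, where proteases release the part that enters the nucleus. Insig proteins hold Scap back when sterols are plentiful, and the Insig1 gene is itself a target of the pathway. The product of Srebf2 acts mainly on genes of cholesterol synthesis and that of Srebf1 mainly on genes of fatty acid synthesis. Many SREBP target promoters also bind the factor NF-Y at a CCAAT box. In pancreatic tumors the pathway is known for supplying membrane lipid and the isoprenoid groups attached to signalling proteins.

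KPC names a mouse model of pancreatic ductal adenocarcinoma driven by Cre recombinase. The tested tumors, null 7, 14, 15, 18 and 23, have the genotype written as KPF/+CSF/F, and the tumors they are set against, WT 2, 3, 6 and 9, the genotype KPF/+C. The KPF/+C alleles are thus common to both groups and SF/F belongs to the null tumors. The labels do not spell out these letters, the driver of Cre or the age of the mice. Nor do they say that no mouse gave several tumors, and p-values cover only how far these 9 tumors vary. The tissue was frozen primary tumor, from which polyA RNA was sequenced.

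For a view of the DNA in front of these genes, promoter windows were read from RefSeq (build GRCm38.p6, 250 bases before to 50 bases after the start). The table held 24 of the 30 genes in 32 windows, and Fdps, Fdft1, Sqle, Stard4, Scd1 and Scd2 were not matched. The letters TCACNCCAC, a form of the sterol regulatory element, were searched on both strands and stood in 1 of the 32 windows (3.12%), that of Hmgcs1, against 408 of 32851 windows of all genes (1.24%). CCAAT, on either strand, stood in 21 of the 32 windows (65.6%), against 12289 of 32851 (37.4%). The windows of 4 genes to which the results below return, 1 from each role, are chr13:119690101-119690400 (plus strand, Hmgcs1), chr5:4104648-4104947 (minus strand, Cyp51), chr5:28071162-28071461 (plus strand, Insig1) and chr11:120824498-120824797 (minus strand, Fasn). Each is written 5′ to 3′ on the gene's own strand, with capitals for CCAAT, for its reverse complement ATTGG and for the sterol element.
Hmgcs1: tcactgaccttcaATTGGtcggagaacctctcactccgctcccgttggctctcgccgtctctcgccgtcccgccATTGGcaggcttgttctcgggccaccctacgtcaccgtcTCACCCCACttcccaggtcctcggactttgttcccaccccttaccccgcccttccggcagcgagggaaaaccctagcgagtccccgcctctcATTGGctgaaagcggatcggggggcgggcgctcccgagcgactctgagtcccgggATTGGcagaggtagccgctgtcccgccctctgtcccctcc
Cyp51: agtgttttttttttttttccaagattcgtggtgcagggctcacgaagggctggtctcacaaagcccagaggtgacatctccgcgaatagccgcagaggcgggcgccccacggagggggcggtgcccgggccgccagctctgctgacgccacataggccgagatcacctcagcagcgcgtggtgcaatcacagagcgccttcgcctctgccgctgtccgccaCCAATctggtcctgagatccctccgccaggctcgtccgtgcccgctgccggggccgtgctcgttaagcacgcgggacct
Insig1: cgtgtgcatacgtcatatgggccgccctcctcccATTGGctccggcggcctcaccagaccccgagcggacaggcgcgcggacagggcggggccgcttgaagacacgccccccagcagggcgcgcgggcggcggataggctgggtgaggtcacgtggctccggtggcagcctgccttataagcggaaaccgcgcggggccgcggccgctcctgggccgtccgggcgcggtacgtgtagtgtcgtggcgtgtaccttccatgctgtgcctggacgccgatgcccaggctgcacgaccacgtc
Fasn: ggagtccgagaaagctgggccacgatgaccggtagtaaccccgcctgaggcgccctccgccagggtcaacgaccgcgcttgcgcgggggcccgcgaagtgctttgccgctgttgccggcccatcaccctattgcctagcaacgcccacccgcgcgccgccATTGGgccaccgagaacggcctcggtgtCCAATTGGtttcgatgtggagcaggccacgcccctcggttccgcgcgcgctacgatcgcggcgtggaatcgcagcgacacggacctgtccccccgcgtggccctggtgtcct
In Hmgcs1 the capitals TCACCCCAC lie 137 bases before the start, among 4 copies of ATTGG. Cyp51 and Insig1 held 1 copy each, and Fasn held 3, of which a pair overlap as CCAATTGG. These are matches of letters only.

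Counts summed to between 19281212 and 27596832 per null tumor and between 10145830 and 26502285 per WT tumor. The 30 genes had between 136 and 16999 counts in a tumor, and the common biological coefficient of variation was 0.494, so the spread between tumors and not counting limited their precision. In a principal component analysis null 7 was the extreme tumor on the axis with the most variance (29.6%), and WT 3 on the next axis (26.4%). Scrib itself averaged 60.3 ± 24.6 CPM (counts scaled to a library of fixed size; SD, n = 5) in null tumors and 70.5 ± 21.4 CPM (SD, n = 4) in WT tumors, and edgeR gave a log2 fold change of −0.23 (SE 0.31, adjusted p = 0.712), so Scrib mRNA of the whole tumor did not set the labelled groups apart. Epithelial genes were abundant in every tumor: Epcam, an epithelial adhesion protein, ranged from 934 to 1450 CPM in null tumors and from 1009 to 1440 CPM in WT tumors.

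No gene of the pathway passed the test after adjustment. With edgeR's quasi-likelihood test and Benjamini-Hochberg adjustment over all 16169 genes, 0 of the 30 were called higher in null tumors and 0 were called lower, against 0% of all genes called higher and 0.0124% called lower. At an unadjusted p under 0.05, 1 of the 30 was higher (3.33%), against 7.64% of all genes, and 6 were lower (20%), against 10% of all genes. With limma-voom 0 of the 30 were called, and with DESeq2 0 were called higher, against 1.15% of all genes with an adjusted p from that tool, and 1 lower, Cyp51 (3.33%), against 2.24%. In 1 gene, Stard4, no null tumor reached the level of any WT tumor (3.33% of the 30, against 3.49% of all genes in this direction). No gene of the 30 had every null tumor above every WT tumor, against 3.42% of all genes, and 6.91% of all genes did not overlap in either direction.

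Of the 18 sterol enzymes 16 had a lower estimate in null tumors, against 8445 of 16169 genes tested, and their median log2 fold change was −0.44. Of these 16, Hmgcs1 (−0.005), Lss (−0.003) and Fdft1 (−0.05) lay close to 0, and 8 of the 18 turned sign in at least 1 alternative. Of the 6 fatty acid enzymes 5 had a higher estimate, with a median of 0.50, and 2 of the 6, Elovl6 and Scd1, turned sign in at least 1 alternative. The 6 regulators split into 2 with a higher and 4 with a lower estimate, with a median of −0.28. The median over all genes tested was −0.03, and that over the 30 genes was −0.32. Leaving out WT 3 brought the sterol median to −0.21, with 14 of 18 estimates below 0, and leaving out both WT 3 and null 7 brought it to −0.12, with 12 of 18 estimates below 0. By sex read from transcripts, WT 3, null 7 and null 18 were male and the other 6 tumors female. With sex as a term the sterol median was −0.41, with 14 of 18 estimates below 0.

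**Figure D1:**
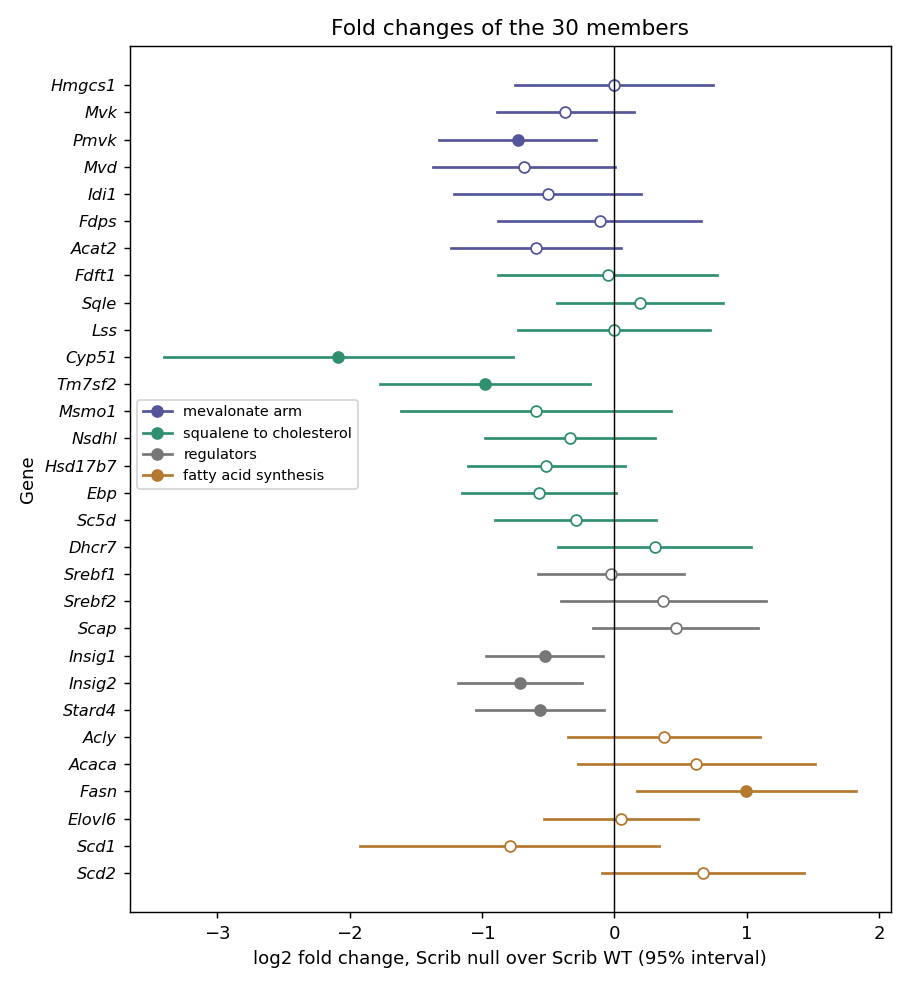
Log2 fold change of each of the 30 genes (horizontal axis, Scrib null over Scrib WT) with its 95% interval from the edgeR fit, coloured by role; filled points have an unadjusted p under 0.05. Of the 18 sterol enzymes 16 lie left of 0 and of the 6 fatty acid enzymes 5 lie right of it, while the adjusted p was 0.208 or more for each gene.

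The mevalonate arm turns acetyl-CoA into farnesyl diphosphate, the building block of sterols and isoprenoids. All 7 of its genes had an estimate below 0 in null tumors, from −0.73 to −0.005 on the log2 scale. At an unadjusted p under 0.05 1 was lower, against 10% of all genes. Pmvk, the phosphomevalonate kinase on chromosome 3 (89454541 to 89469013), had 14.6, 23.0, 29.7, 13.1 and 16.3 CPM in null tumors 7, 14, 15, 18 and 23, against 32.5, 38.1, 29.6 and 28.4 CPM in WT tumors 2, 3, 6 and 9. Only null 15 reached the WT range. The mean was 19.3 ± 6.92 CPM (SD, n = 5) in null tumors and 32.1 ± 4.31 CPM (SD, n = 4) in WT tumors, a log2 fold change of −0.73 (SE 0.27, edgeR adjusted p = 0.233).

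Mvd, the decarboxylase that makes isopentenyl diphosphate, had 25.03, 37.1, 35.9, 21.8 and 21.2 CPM in the null tumors, against 44.2, 73.3, 26.1 and 37.9 CPM in the WT tumors. The groups overlapped through WT 6, and WT 3 was the highest tumor. Its log2 fold change was −0.68 (SE 0.31, edgeR adjusted p = 0.284), and −0.31 without WT 3. Hmgcs1, the synthase that makes the substrate of the pathway's controlled step, had 71.1, 173, 101, 85.7 and 79.0 CPM in the null tumors, against 169, 68.1, 91.7 and 80.6 CPM in the WT tumors. Both groups spanned the same range, with null 14 and WT 2 high, and the fold of null over WT was 0.997 (95% interval 0.594 to 1.67). Of the other genes of this arm, Acat2, an acetyl-CoA acetyltransferase, had −0.59, Idi1, the isomerase of isopentenyl diphosphate, −0.51, the kinase Mvk −0.37 and Fdps, the farnesyl diphosphate synthase, −0.11 on the log2 scale, with edgeR adjusted p from 0.308 to 0.881.

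The squalene-to-cholesterol arm begins with Fdft1, the squalene synthase, and ends with the sterol reductases. Of its 11 genes 9 had an estimate below 0, and 2, Cyp51 and Tm7sf2, were lower at an unadjusted p under 0.05, against 10% of all genes. Tm7sf2, a sterol reductase on chromosome 19 (6062821 to 6068373), had 9.38, 20.1, 22.6, 13.7 and 14.4 CPM in null tumors 7, 14, 15, 18 and 23, against 31.3, 54.2, 23.0 and 18.0 CPM in WT tumors 2, 3, 6 and 9. Null 7 was the lowest tumor, WT 3 the highest, and the groups overlapped through WT 9. The log2 fold change was −0.98 (SE 0.36, edgeR adjusted p = 0.233), and −0.41 without null 7 and WT 3. The annotation places 12.1% of its exon bases within exons of Vps51 on the same strand, so its counts depend on how shared reads were divided, and Vps51 had a log2 fold change of 0.36.

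Sqle, the squalene epoxidase, had 53.4, 106, 125, 66.3 and 62.7 CPM in the null tumors, against 88.3, 60.9, 58.8 and 81.3 CPM in the WT tumors. The groups overlapped over most of their range, with null 14 and null 15 highest, and the log2 fold change was 0.19 (SE 0.28, edgeR adjusted p = 0.729). Msmo1, a methylsterol oxidase, spanned 56.0 to 208 CPM in null tumors and 97.7 to 297 CPM in WT tumors, with an estimate of −0.59 on the log2 scale that came to −0.004 when WT 3 was left out. The isomerase Ebp (−0.57), the reductase Hsd17b7 (−0.51), the dehydrogenase Nsdhl (−0.34) and the desaturase Sc5d (−0.29) had lower estimates in null tumors. Fdft1 (−0.05) and the cyclase Lss (−0.003) were near 0, and Dhcr7, the reductase that yields cholesterol, was 0.30, with edgeR adjusted p from 0.290 to 0.996 over these 7 genes. Of the exon bases of Fdft1, 18.3% lie within exons of Ctsb on the opposite strand, a gene that averaged 885 ± 246 CPM (SD, n = 5) in null tumors and 1299 ± 319.8 CPM (SD, n = 4) in WT tumors, and without strand the reads of such a pair cannot be told apart.

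**Figure D2:**
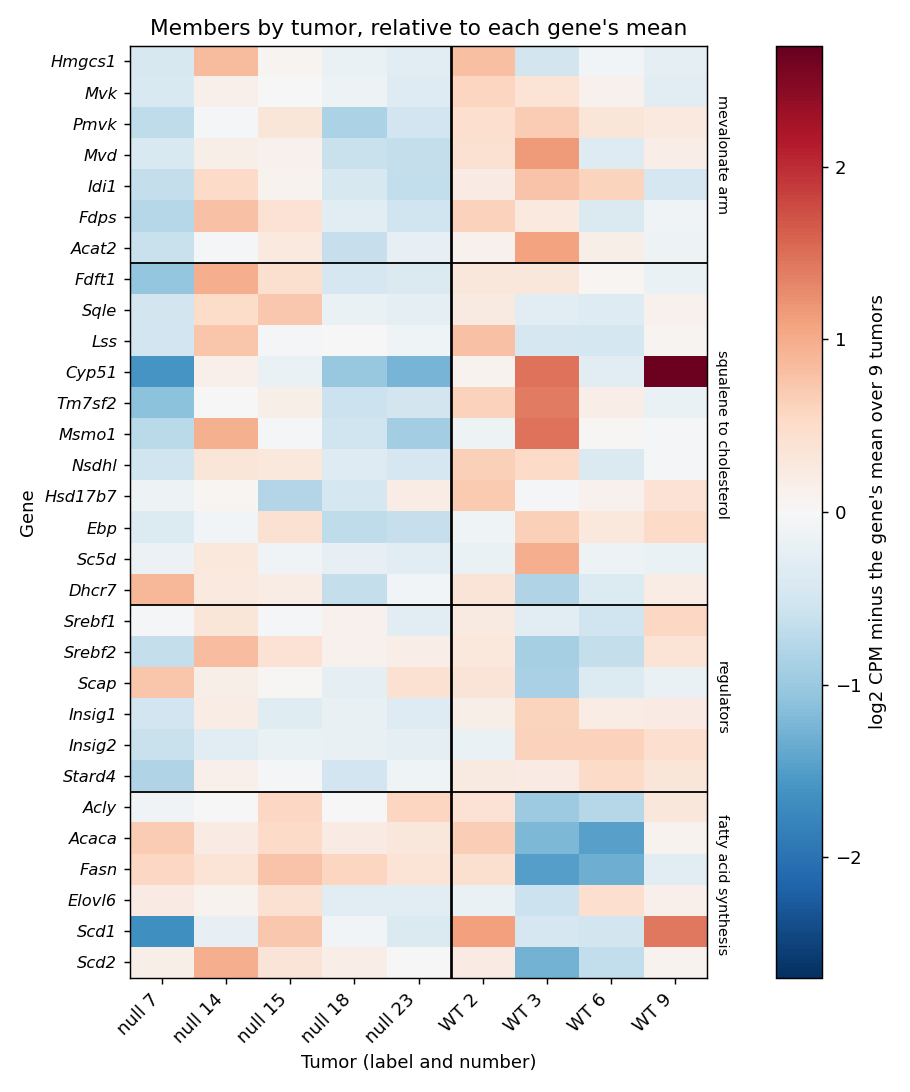
Log2 CPM of each of the 30 genes (rows, grouped by role) in each tumor (columns, null tumors left of the line), as the difference from that gene's mean over 9 tumors; red is higher and blue lower. WT 3 is red in most sterol enzymes and blue in Acly, Acaca, Fasn and Scd2, and Cyp51 is darkest in WT 9, at 738 CPM.

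Cyp51, the lanosterol demethylase, had the smallest p of the 30. The gene (ENSMUSG00000001467) lies on chromosome 5, at 4081145 to 4104746 on the minus strand. It had 38.9, 130, 104, 57.8 and 49.2 CPM in null tumors 7, 14, 15, 18 and 23, against 125.5, 326, 97.4 and 738 CPM in WT tumors 2, 3, 6 and 9. WT 9 and WT 3 stood far above the rest, while WT 2 and WT 6 lay within the null range. The mean was 75.9 ± 39.0 CPM (SD, n = 5) in null tumors and 322 ± 295 CPM (SD, n = 4) in WT tumors, a fold of 0.236 (95% interval 0.0947 to 0.586, edgeR adjusted p = 0.208). DESeq2 gave an adjusted p of 0.0272. Without WT 9 the log2 fold change was −1.27, against −2.09 with it.

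In WT 9 the genes around Cyp51 were high with it. Of the tested genes within 500 kb of Cyp51, 10 of 10 were highest in WT 9, at a median of 2.34 on the log2 scale over the median of the other 8 tumors, and Cyp51 stood at 2.88. The raised stretch began at Cdk6, a cell cycle kinase that starts at 3341485, which was 3.65-fold over that median, and ran through Gatad1 (5.25-fold), Ankib1 (6.33-fold), Krit1 (5.70-fold) and Akap9 (6.06-fold) to Mterf1b (4.30-fold). Beyond it Fzd1 was 1.77-fold and Cdk14 0.803-fold. Among all 30 genes and 9 tumors, the neighbourhood median next in size was −1.18, around Idi1 in WT 3. In WT 3 Cyp51 was 3.25-fold over the median of the others, and its neighbours were mixed. Mterf1a and Mterf1b, a pair of near-identical genes whose reads may be shared, were 3.83-fold and 2.99-fold, Akap9 was 0.463-fold and Ankib1 0.841-fold, and the median of the 10 was 0.24 on the log2 scale. DNA copy number was not measured, and its part in the Cyp51 values was not tested. Akap9 lies on the opposite strand and shares 3.76% of the exon bases of Cyp51, and no source used here says whether reads were counted by strand.

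**Figure D3:**
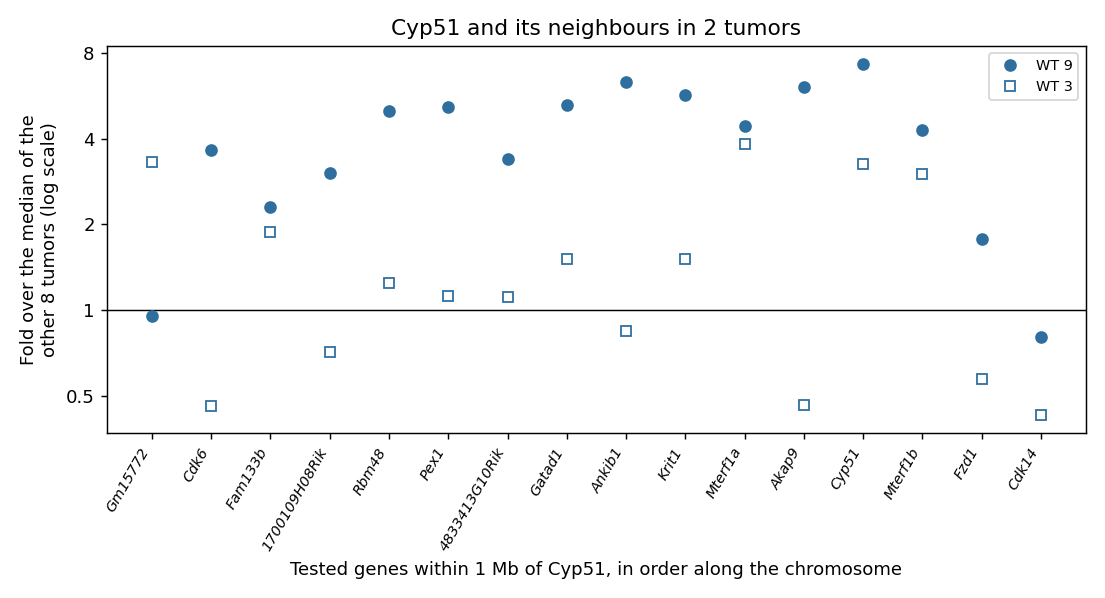
Level of Cyp51 and of each tested gene within 1 Mb of it, in chromosomal order (horizontal axis), as the fold over the median of the other 8 tumors (vertical axis, log scale), in WT 9 (filled circles) and WT 3 (open squares). In WT 9 the genes from Cdk6 to Mterf1b are all raised, whereas in WT 3 they are mixed, with Mterf1a at 3.83-fold and Akap9, next to Cyp51, at 0.463-fold.

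Of the 6 regulators, 3 were lower in null tumors at an unadjusted p under 0.05, against 10% of all genes. They were both Insig genes and a sterol carrier, and the genes of the transcription factors and their escort were not among them. Insig2, an endoplasmic reticulum retention protein on chromosome 1 (121304353 to 121332589), had 21.1, 26.3, 28.6, 27.996 and 27.1 CPM in null tumors 7, 14, 15, 18 and 23, against 28.5, 49.9, 49.6 and 44.2 CPM in WT tumors 2, 3, 6 and 9. The null tumors lay in a narrow band, and only WT 2 fell within it. The mean was 26.2 ± 3.01 CPM (SD, n = 5) in null tumors and 43.1 ± 10.1 CPM (SD, n = 4) in WT tumors, a fold of 0.609 (95% interval 0.440 to 0.844, edgeR adjusted p = 0.208).

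Insig1, its paralog on chromosome 5 (28071363 to 28078662), had 33.0, 54.6, 37.3, 40.8 and 37.1 CPM in the null tumors, against 52.6, 72.0, 54.4 and 54.9 CPM in the WT tumors. Null 14 was the 1 null tumor within the WT range, and WT 3 was the highest. The log2 fold change was −0.53 (SE 0.20, edgeR adjusted p = 0.237), and −0.37 without WT 3. Stard4, a cytosolic cholesterol carrier on chromosome 18 (33199355 to 33213862), had 24.5, 46.9, 42.2, 29.7 and 39.7 CPM in the null tumors, against 51.0, 50.2, 61.3 and 53.8 CPM in the WT tumors. All null tumors lay below all WT tumors. The mean was 36.6 ± 9.22 CPM (SD, n = 5) in null tumors and 54.1 ± 5.07 CPM (SD, n = 4) in WT tumors, a log2 fold change of −0.56 (SE 0.22, edgeR adjusted p = 0.243).

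Srebf1 had 113, 143, 110, 125 and 92.7 CPM in the null tumors, against 135, 92.9, 79.2 and 168 CPM in the WT tumors. The WT tumors spanned the whole null range, and the fold was 0.983 (95% interval 0.670 to 1.44). Srebf2 had 139, 385, 287, 237 and 247 CPM in the null tumors, against 266, 118, 139 and 280 CPM in the WT tumors. Null 14 was the highest, WT 3 the lowest, and the log2 fold change was 0.37 (SE 0.35, edgeR adjusted p = 0.580). Scap had 133, 88.3, 81.3, 66.1 and 105 CPM in the null tumors, against 101, 42.9, 61.3 and 70.0 CPM in the WT tumors. Null 7 was the highest and WT 3 the lowest, with a log2 fold change of 0.46 (SE 0.28, edgeR adjusted p = 0.393). The mRNA does not show how much of either factor was cleaved.

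**Figure D4:**
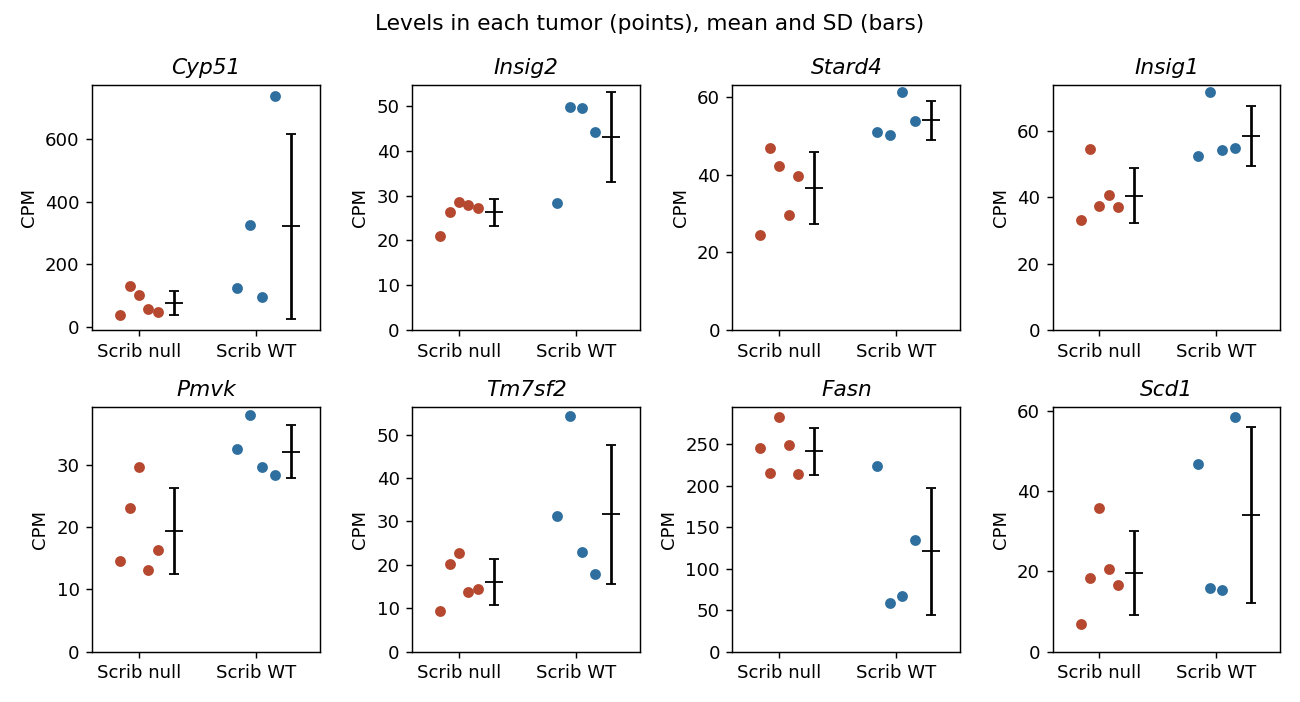
CPM of 8 genes in each tumor (points, Scrib null in red left of Scrib WT in blue), with the mean and SD beside them. Stard4 is the 1 gene of the 8 whose groups do not overlap, the Insig2 groups meet at WT 2, and the Cyp51 mean in WT tumors rests on WT 9 (738 CPM) and WT 3 (326 CPM).

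Fatty acid synthesis runs from citrate through Acly, Acaca and Fasn to palmitate, which Elovl6 lengthens and the Scd enzymes desaturate. Fasn, the fatty acid synthase on chromosome 11 (120805846 to 120824547), had 246, 216, 283, 249 and 214 CPM in null tumors 7, 14, 15, 18 and 23, against 224, 59.1, 66.5 and 134 CPM in WT tumors 2, 3, 6 and 9. The null tumors lay close together, and only WT 2 reached them. The mean was 241 ± 28.5 CPM (SD, n = 5) in null tumors and 121 ± 76.7 CPM (SD, n = 4) in WT tumors, a fold of 2.00 (95% interval 1.12 to 3.54, edgeR adjusted p = 0.237).

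Acly, the citrate lyase that makes cytosolic acetyl-CoA, had 226, 242, 354, 238 and 359 CPM in the null tumors, against 315, 123, 141 and 296 CPM in the WT tumors. Acaca, the carboxylase that makes malonyl-CoA, had 53.2, 38.3, 47.0, 38.2 and 40.8 CPM in the null tumors, against 52.4, 14.1, 11.9 and 35.0 CPM in the WT tumors. In both genes WT 3 and WT 6 were low and WT 2 lay among the null tumors. The log2 fold change was 0.37 for Acly (SE 0.33, edgeR adjusted p = 0.551) and 0.62 for Acaca (SE 0.40, edgeR adjusted p = 0.423).

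The desaturases Scd2 and Scd1 had estimates of opposite sign, and the difference between them was not tested. Scd2 had 492, 867, 556, 495 and 436 CPM in the null tumors, against 510, 180, 275 and 465 CPM in the WT tumors, a log2 fold change of 0.67 (SE 0.35, edgeR adjusted p = 0.326). Scd1 had 6.86, 18.5, 35.9, 20.7 and 16.6 CPM in the null tumors, against 46.9, 15.9, 15.4 and 58.5 CPM in the WT tumors, a log2 fold change of −0.79 (SE 0.51, edgeR adjusted p = 0.417). WT 3 was the lowest tumor in Scd2, while Scd1 was highest in WT 2 and WT 9 and lowest in null 7. Elovl6 was near 0, at 0.05 (SE 0.26, edgeR adjusted p = 0.936). Per kilobase of transcript, Scd2 had the highest mean level of the 30 genes over the 9 tumors, 87.1 CPM per kilobase, followed by Fdps at 77.2 and Msmo1 at 60.7, and Scd1 had 5.41 CPM per kilobase.

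In WT 3 and WT 6, which were low in Fasn, Acly, Acaca and Scd2, long transcripts were low over the whole library. For each tumor, the genes with the longest 25% of transcripts were set against those with the shortest 25%, as the difference of their median log2 levels relative to each gene's mean over tumors. The difference was −0.001 to 0.53 in null tumors, against −1.38 in WT 3, −0.62 in WT 6, 0.26 in WT 9 and 0.36 in WT 2. Over the 9 tumors its r was 0.85 with Fasn, 0.84 with Acly, and 0.83 with both Acaca and Scd2. It was 0.27 with Scd1 and 0.14 with Elovl6, whose transcript has 5951 bases. Elovl6 stood at 14.5 CPM in WT 3, its lowest tumor, and at 29.6 CPM in WT 6, its highest. Fasn and Acaca have transcripts of 10050 and 9513 bases, and the median transcript was 5703 bases for the 6 fatty acid genes, 2504 bases for the 18 sterol enzymes and 2772 bases for all genes. When each tumor was corrected for the GC content and length of transcripts, an alternative added after seeing the data, the log2 fold change of Fasn was 0.69 (edgeR adjusted p = 0.207), the fatty acid median 0.43 and the sterol median −0.27 with 14 of 18 estimates below 0. That correction moved the median of all genes to 0.08. Among the 6 regulators, r with the length difference was 0.73 for Srebf2, 0.71 for Scap, 0.58 for Srebf1, −0.41 for Stard4, −0.63 for Insig1 and −0.70 for Insig2. With the correction their log2 fold changes were, in the same order, 0.11, 0.26, −0.25, −0.64, −0.37 and −0.52. The part of transcript length in the fatty acid and regulator values was not tested.

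Subtracting the mean log2 CPM of the 18 sterol enzymes from that of the 6 fatty acid genes gave 1 value per tumor. It was 1.26, 0.61, 1.15, 1.29 and 1.26 in null tumors 7, 14, 15, 18 and 23, against 0.80, −0.77, 0.07 and 0.87 in WT tumors 2, 3, 6 and 9. Of the null tumors 4 lay above every WT tumor and null 14 lay below WT 2 and WT 9. The sterol mean alone was 5.06, 5.97, 5.73, 5.15 and 5.16 in the null tumors, against 5.97, 6.11, 5.55 and 5.75 in the WT tumors, and the fatty acid mean alone was 6.32, 6.58, 6.89, 6.43 and 6.43 in the null tumors, against 6.77, 5.34, 5.62 and 6.62 in the WT tumors. Null 7, 18 and 23 were low in sterol enzymes, and WT 3 and WT 6 were low in fatty acid genes.

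**Figure D5:**
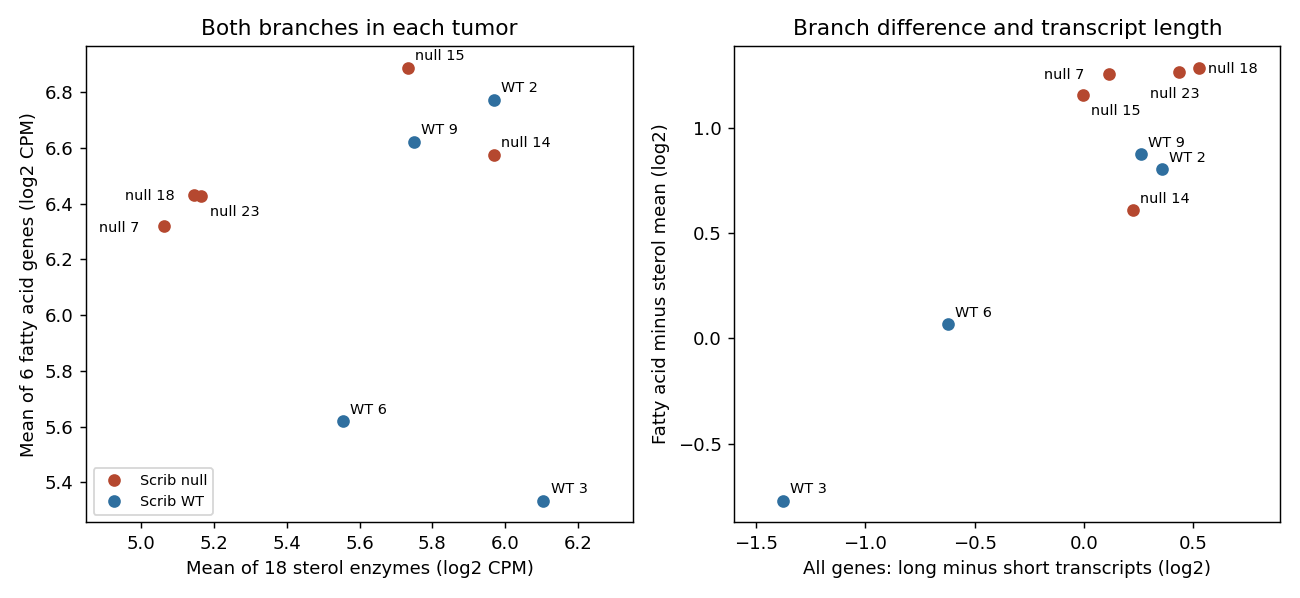
Left, the mean log2 CPM of the 6 fatty acid genes (vertical) against that of the 18 sterol enzymes (horizontal) in each tumor, null in red and WT in blue. Right, the difference of these means (vertical) against how much long transcripts exceed short ones over all genes of the library (horizontal, log2), where WT 3 and WT 6 stand apart at −1.38 and −0.62.

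The tumor identifiers in the labels fall in a lower range, with 3 null and 1 WT tumors, and a higher range, with 2 null and 3 WT tumors, and the labels do not say what the ranges mark. Within the lower range 13 of 18 sterol enzymes had a lower mean in null tumors, and within the higher range 16 of 18 did. Of the 6 fatty acid genes 3 had a higher mean in null tumors in the lower range and 4 in the higher. The difference for Fasn was 0.14 on the log2 scale in the lower range and 1.51 in the higher. For Cyp51 it was −0.64 and −2.42, for Insig2 −0.18 and −0.79, for Stard4 −0.48 and −0.68, and for Insig1 −0.37 and −0.62, each giving the lower range before the higher.

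The median Pearson correlation of log2 CPM within the 18 was 0.53 over 153 gene pairs, of which 131 were positive, over the 9 tumors. Between fatty acid genes and sterol enzymes it was −0.10, with 45 of 108 positive, and over all pairs of tested genes it was 0.002, with 50.2% positive. These points share libraries and are a description. Several sterol enzymes also moved with properties of the library. With the difference between long and short transcripts r was −0.83 for Acat2, −0.79 for Sc5d and −0.71 for Idi1, and with depth it was −0.76 for Mvd and −0.73 for Mvk, each over 9 tumors and given as a description. The part of length and depth in the shared variation was not tested. Of 8 pairs compared by role, none passed adjustment over the 8 in exact permutation tests. Srebf2 with Hmgcs1 had r = 0.67 (exact permutation p = 0.0514, adjusted p = 0.137) and rho = 0.70 (exact permutation p = 0.0433, adjusted p = 0.173), and r was 0.67 without WT 3 and WT 6, the tumors farthest from the Srebf2 median. Sqle with Hmgcs1 had r = 0.67 (exact permutation p = 0.0471, adjusted p = 0.137) and rho = 0.73 (exact permutation p = 0.0311, adjusted p = 0.173), with r = 0.72 without null 14 and null 15.

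Acly with Fasn had the strongest r of the 8, 0.83 (exact permutation p = 0.0142, adjusted p = 0.114), with rho = 0.43 (exact permutation p = 0.250, adjusted p = 0.564). Without WT 3 and WT 6 it was −0.05, so the relation rested on those tumors. Scd1 with Fasn had r = 0.11, and 0.67 after the mean of each group was removed. Insig1 with Hmgcs1, both known targets of the pathway, had r = 0.18, Idi1 with Hmgcs1 0.38, Srebf1 with Fasn 0.47 and Fasn with Hmgcs1 0.35, with adjusted exact permutation p from 0.409 to 0.774 over these 5 pairs. Their rho ran from 0.07 to 0.37, with adjusted exact permutation p from 0.564 to 0.880. Without the tumors farthest from the median, r was −0.15, 0.16, 0.51, 0.11 and, for Scd1 with Fasn, 0.59.

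Genes upstream of the pathway were mostly higher by estimate in null tumors. Of 11 genes for the SREBP proteases, the ubiquitin machinery of the endoplasmic reticulum and the partner factors NF-Y and Sp1, 9 had an estimate above 0, with a median log2 fold change of 0.23. At an unadjusted p under 0.05 1 was higher and 1 lower, against 7.64% and 10% of all genes. Nfya, a subunit of NF-Y, averaged 77.4 ± 7.90 CPM (SD, n = 5) in null tumors and 51.4 ± 15.8 CPM (SD, n = 4) in WT tumors (log2 fold change 0.59, edgeR adjusted p = 0.248), and its groups did not overlap. Mbtps1, the first of the SREBP proteases to cut, had a log2 fold change of 0.43 and Syvn1, an endoplasmic reticulum ubiquitin ligase, 0.45 (edgeR adjusted p = 0.317 and 0.294), and Ufd1, a cofactor of protein extraction, had −0.45 (edgeR adjusted p = 0.242). None of the 11 was called by edgeR, DESeq2 or limma-voom.

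Of 23 other genes of fatty acid and triglyceride synthesis 21 could be tested. Of these 6 had an estimate above 0 and 15 below 0, with a median of −0.31, and 0 were called by edgeR, DESeq2 or limma-voom. At an unadjusted p under 0.05 0 were higher and 2 lower, against 7.64% and 10% of all genes. Acss2, which makes acetyl-CoA from acetate, averaged 7.64 ± 2.46 CPM (SD, n = 5) in null tumors and 15.0 ± 2.96 CPM (SD, n = 4) in WT tumors (log2 fold change −0.97, edgeR adjusted p = 0.221), and its groups did not overlap. Agpat2, an acyltransferase of triglyceride synthesis, had −0.62, the elongase Elovl5 −0.40 and the acyl-CoA synthetase Acsl4 0.51. Of 12 genes that use isoprenoids for other products, 6 lay on each side of 0, with a median of −0.02 and 0 with an unadjusted p under 0.05 in either direction, and 0 were called by any of the 3 tools. Among them were the farnesyltransferase subunits Fnta (−0.45) and Fntb (0.34) and Ggps1, the geranylgeranyl diphosphate synthase (−0.24).

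Of 20 genes of cholesterol uptake, storage and efflux 15 had an estimate below 0, with a median of −0.41. At an unadjusted p under 0.05 0 were higher and 7 lower, against 10% of all genes lower, and in 5 no null tumor reached any WT tumor, against 3.49% of all genes. None was called by edgeR or limma-voom, and DESeq2 called 4 lower, Apoe, Cyp27a1, Lipa and Nr1h3, against 2.24% of all genes. Cyp27a1, a mitochondrial sterol hydroxylase, averaged 2.78 ± 0.757 CPM (SD, n = 5) in null tumors and 7.40 ± 1.57 CPM (SD, n = 4) in WT tumors (log2 fold change −1.41, edgeR adjusted p = 0.197). Lipa, the lysosomal acid lipase, averaged 32.4 ± 13.2 CPM (SD, n = 5) in null tumors and 76.7 ± 9.32 CPM (SD, n = 4) in WT tumors (log2 fold change −1.24, edgeR adjusted p = 0.201). Nr1h3, the liver X receptor alpha, had a log2 fold change of −1.15 and Apoe, a lipid carrier that macrophages secrete, −0.94 (edgeR adjusted p = 0.208 for both).

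Markers of several other cell types had lower estimates in null tumors as well, while 4 of 7 tested acinar markers had a higher one (median log2 fold change 0.33). All 10 macrophage markers, all 10 fibroblast markers, all 8 endothelial markers and all 6 tested lymphocyte markers had an estimate below 0. The summed level of the macrophage markers was 410 to 884 CPM in null tumors and 718 to 1803 CPM in WT tumors. Fibroblast markers summed to 368 to 4557 CPM in null tumors and 2213 to 9331 CPM in WT tumors, and endothelial markers to 61.5 to 311 CPM in null tumors and 319 to 542 CPM in WT tumors. Lymphocyte markers summed to 2.08 to 10.8 CPM in null tumors and 7.45 to 15.2 CPM in WT tumors. The mean log2 CPM of each of these lists was averaged over the lists, which hold 34 tested markers and have equal weight. The result was 2.15, 3.70, 4.21, 3.58 and 3.98 in null tumors 7, 14, 15, 18 and 23, against 4.75, 4.11, 4.41 and 5.00 in WT tumors 2, 3, 6 and 9. Null 7 was far below the rest, and null 15 was the 1 null tumor above a WT tumor, WT 3. This average joins only lists in which every tested marker had a lower estimate in null tumors, so no p is given for it. The adipocyte, acinar and hepatocyte lists were left out of it, and the choice was made with earlier results known. In whole tumors, fewer cells of a type and less RNA per cell cannot be told apart.

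With that marker level as a term in the edgeR fit, 0 of the 30 genes were lower at an unadjusted p under 0.05. The share of all genes at that p in this fit is not given here. The marker level itself was lower in most null tumors than in any WT tumor. The fit can therefore hardly separate the label from the marker level, and estimates lose precision. Whether non-epithelial content accounts for the lower estimates was not tested by this count. The log2 fold change was then −0.24 for Stard4 (adjusted p = 0.642), −1.28 for Cyp51 (adjusted p = 0.421), −0.61 for Insig2 (adjusted p = 0.348), 1.28 for Fasn (adjusted p = 0.317) and 1.13 for Srebf2 (adjusted p = 0.293), each from edgeR. The estimate of Scd1 turned to 0.49. The sterol median was −0.44 with 12 of 18 estimates below 0, the fatty acid median 0.84 with 6 of 6 above 0, and the regulator median −0.044.

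Adipocyte markers, which bear on the lipid genes, summed to 31.3 to 42.1 CPM in null tumors and 78.9 to 285 CPM in WT tumors. Their mean log2 CPM over 5 tested genes was 0.59 to 1.79 in null tumors and 1.99 to 4.30 in WT tumors (exact two-sided permutation p = 0.00794, the smallest this design allows; adjusted p over 9 marker lists = 0.0714). Only these 5 of the 10 adipocyte markers could be tested, and 4 had an estimate below 0 and 1 above 0, at 0.41 on the log2 scale. Of the 10 markers, Lep was at 0 in all tumors, Adipoq was at 0 to 0.141 CPM in null tumors and 0 to 6.19 CPM in WT tumors, and Fabp4 was at 9.94 to 20.5 CPM in null tumors and 42.7 to 205 CPM in WT tumors. WT 3, the tumor with the highest level of these markers (4.30), had Scd1 at 15.9 CPM and Fasn at 59.1 CPM. The part of adipocytes in the values of Acss2 and Scd1 was not tested.

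Over the same 9 lists the adjusted exact permutation p was 0.143 for macrophages, endothelium and lymphocytes, 0.245 for fibroblasts, hepatocytes and proliferation genes, 0.598 for epithelium and 0.802 for acinar cells. The epithelial level was 8.98 to 9.81 log2 CPM in null tumors and 9.18 to 9.53 log2 CPM in WT tumors. Hepatocyte markers, from a tissue rich in sterol synthesis, summed to 3.26 to 7.31 CPM in null tumors and 6.77 to 94.1 CPM in WT tumors, with Alb at 0.0342 to 1.19 CPM in null tumors and 0 to 2.77 CPM in WT tumors. Of 5 tested hepatocyte markers 4 had an estimate below 0 and 1 above 0. Proliferation genes ranged from 5.64 to 6.57 log2 CPM in null tumors and from 5.32 to 6.10 log2 CPM in WT tumors, and acinar markers from −1.68 to 4.36 in null tumors and from −1.54 to 4.91 in WT tumors.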

How the data were processed

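Gene expression was measured by mRNA sequencing of 9 whole tumors, grouped by the genotype in the labels. The authors deposited a table of estimated counts per Ensembl gene, which were not normalized. Salmon 1.4.0 and DESeq 2 are listed as tools, and GRCm38 and mm10 as builds, per the submitters' processing notes. Strandedness and the annotation release are not given in the sources used here. Of the 54453 rows, 54200 matched a symbol in GENCODE M21 (GRCm38), 23854 were at 0 in all tumors, and every row had a gene identifier.

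Estimated counts were rounded, which moved no value by more than 0.5. Genes were kept by filterByExpr (minimum count 10, minimum total 15), scaled by TMM and tested with edgeR 4.0.16's quasi-likelihood test in R 4.3.3, with no covariate and Benjamini-Hochberg adjustment over 16169 genes at 0.05. The SE is the log2 fold change divided by the square root of F, and intervals are at 95% from the same fit. CPM is over TMM-scaled libraries, and log2 CPM has a prior count of 2. Libraries within a group differed by far more than counting error (chi-square per degree of freedom 72.4 or more). The test was also run on simulated data, and the outcome is not reported here. DESeq2 1.42.0 and limma-voom (limma 3.58.1) were alternatives, with other scalings, filters, covariates and tumors left out. The covariates were sex read from transcripts, identifier range, and the mean of the macrophage, fibroblast, endothelial and lymphocyte list levels (34 markers). GC content and length came from 1 transcript per gene and covered 99.89% of tested genes.

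The 30 genes, the pathway and marker lists and the alternatives were chosen with earlier results of these data known. Values in every tumor are given for the 8 genes with the smallest p and for Hmgcs1, Sqle, Insig1, Srebf1, Srebf2, Scap, Fasn, Acly, Acaca, Scd1 and Scd2, and up to 4 genes of each pathway list are named by p, except 1 that is not reported here. Exact permutation tests used all splits of the tumors for marker levels and all orderings for correlations, both two-sided.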

Additional observations from a re-analysis of the deposited data

Results flagged for a closer look

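A value in 1 tumor stood apart from the other tumors of its group, by the gap to the nearest of them relative to the group's range, in 6 of 60 groups checked (30 genes in each of the null and WT groups). The rule is set to flag about 1 in 20 groups, or 5%, when groups are independent. The groups here share libraries and many of the genes varied together, so 5% is not a chance expectation for the 6 of 60. In null 14, Sc5d was at 72.0 CPM, with the other null tumors at 48.3 to 54.9 CPM, and Scd2 at 867 CPM, with the others at 436 to 556 CPM. In WT 3, Acat2 was at 89.9 CPM, with the other WT tumors at 38.8 to 47.5 CPM, and Msmo1 at 297 CPM, with the others at 97.7 to 110 CPM. WT 3 also had Sc5d at 116 CPM, with the others at 51.8 to 53.5 CPM, and Insig1 at 72.0 CPM, with the others at 52.6 to 54.9 CPM. All 4 genes that stood apart in WT 3 were high there.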

How the results depend on the processing

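The direction of the sterol median (−0.44), the fatty acid median (0.50), the median of the 30 genes (−0.32) and the regulator median (−0.28) held in all 20 alternatives, and the regulator median came to −0.044 with the marker level of non-epithelial cells as a term. Leaving out 1 tumor at a time gave a sterol median of −0.52 to −0.21, a fatty acid median of 0.30 (without WT 6) to 0.75 (without WT 2), a regulator median of −0.38 to −0.18 and a median of the 30 of −0.42 to −0.11. Of the 30 genes 19 kept their sign in all 20 alternatives and 11 did not, namely Hmgcs1, Fdps, Fdft1, Sqle, Lss, Msmo1, Sc5d, Dhcr7, Srebf1, Elovl6 and Scd1.

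Of the 30 genes DESeq2 called 1 lower, and no other alternative called any. Genes higher at an unadjusted p under 0.05 numbered 1, against 2 with limma-voom, 2 with sex as a term, 2 with the GC and length correction (chosen after seeing the data), 3 with the marker level, 0 without both WT 3 and null 7, and 0 to 4 with 1 tumor left out (4 without WT 2, 0 without WT 6). Genes lower at that p numbered 6, against 10 with upper-quartile scaling, 2 without both WT 3 and null 7, 0 with the marker level, and 3 to 9 with 1 tumor left out (3 without WT 3, 4 without null 7, 9 without null 14 or null 15). The share of all genes at that p in each alternative is not given here. These counts, higher or lower, therefore cannot be read as particular to the 30 genes. Over all genes edgeR called 0 higher, against 1 with no low-count filter, 212 with DESeq2 and 1 with limma-voom. It called 2 lower, against 6 with no filter, 413 with DESeq2, 1 with limma-voom, 1 with sex as a term, 0 with the identifier range, 0 with the marker level, 0 with the correction, 0 without both tumors, and 0 to 1 with 1 tumor left out. The cause of these differences was not tested. No paired analysis was possible because the groups share no replicate number.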
